A study of Pinus pinaster with 14 samples.

Results

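The 200 steadiest transcripts of maritime pine seedling tissues were examined across 14 tissues. Maritime pine (Pinus pinaster) is a Mediterranean conifer, and each tissue was cut by laser from frozen sections of 1-month-old seedlings of the Oria provenance, grown in soil, and sequenced as 1 library of amplified cDNA. The members were chosen by measured values: of 23493 transcripts in the table, 726 (3.09%) stood at a normalised signal of 10 or more in all 14 libraries, and the 200 with the smallest standard deviation (SD) of log2(signal + 5) over those libraries were kept. The signal is a read count divided by an adjusted library total, so that 1 read was worth 0.652 units of signal (root meristem) to 3.76 units (hypocotyl cortex), and 5 was added to it before the logarithm. The libraries were young needle mesophyll and vascular tissue, cotyledon mesophyll and vascular tissue, cortex and vascular tissue of hypocotyl, root and developing root, hypocotyl pith, emerging needles, apical meristem and root meristem. Mesophyll and cortex are called ground tissue here, which gave 5 vascular and 5 ground tissue libraries from the same 5 organs, 2 meristem libraries and 1 each of pith and emerging needles. No tissue was replicated, and the seedlings behind each library, and whether they were pooled, are not given in the sources used here. Recovered reads ran from 519134 to 1536389 per library.

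Transcripts used by nearly all plant cells include those for ribosomal proteins, the cytoskeleton, protein turnover and basic energy metabolism. Such genes are called housekeeping genes, and the steadier ones serve as references: in quantitative PCR the level of a gene of interest is divided by theirs, so that differences in RNA input cancel. A good reference keeps its level across the tissues compared, and several are usually averaged because any single one can move in some tissue. The files pair the transcripts with identifiers only, so it is not known here which of the 200 encode such proteins, and the tissue labels could not be checked against marker genes. No sequence of any member was used. Signals are not divided by transcript length, so levels are compared between libraries for a given transcript and not between transcripts. In dissected tissue, fewer cells of a type and less RNA per cell cannot be told apart.

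The steadiness of the 200 was relative. None kept its highest and lowest signal within 2-fold over the 14 libraries, 2 kept them within 4-fold, 52 within 8-fold and 173 within 16-fold. The median ratio of highest to lowest was 10.96, from 2.71 to 31.5, against a median of 26.2 over all 726 transcripts at 10 or more everywhere. SDs on the log2 scale ran from 0.401 to 1.07 with a median of 0.944, and 23 of the 200 had an SD under 0.75. The list ended with no gap: isotig43284 and isotig43660, ranked 199 and 200, had SDs of 1.068 and 1.069, and the first 2 left out, unigene11734 and unigene17799, had 1.071 and 1.074. These values chose the list and are a description. "Steady" therefore means the lower end of the spread among transcripts present everywhere, not a level held constant.

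Counting error made up little of this spread. The SD that counting alone would give a transcript of the same mean signal had a median of 0.143 and a highest value of 0.271. It amounted to a median of 2.33% of a member's variance and at most 17.7%. Reads of amplified cDNA are not independent molecules, so this covers counting error only. The fewest reads of a member in any library had a median of 15 and a lowest value of 3, and 14 members had under 5 reads in their lowest library. The floor of 10 asked for 16 reads in the root meristem but for no more than 3 in the hypocotyl cortex. Members covered much of the range of signals: their median signal ran from 22.2 to 6120, and that of all 726 from 22.2 to 30858. Signal here also depends on transcript length. The members made up 36.3% of the 182 transcripts of lowest median signal among the 726 and 20.9% of the 182 of highest. Adding 5 before the logarithm narrows the spread most at low signal. The floor of 10 in every library also limits how far a low-signal transcript can fall and stay among the 726. The part of either in these shares was not tested. Identifiers starting isotig were 56.0% of the members and 54.3% of the 726.

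**Figure D1:**
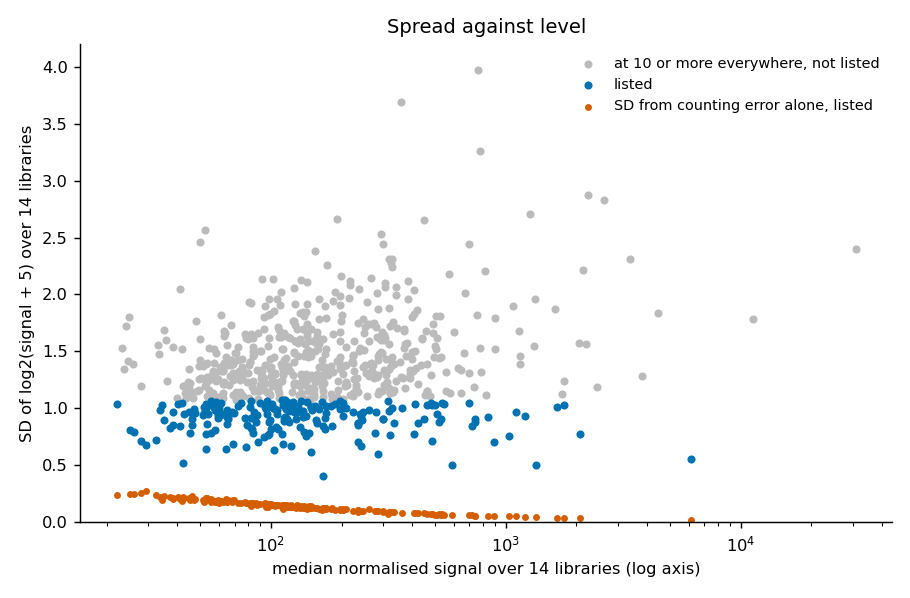
SD of log2(signal + 5) over 14 libraries (vertical axis) against median signal (horizontal axis, log scale) for the 726 transcripts at 10 or more everywhere, with the 200 listed in blue, the others in grey, and in orange the SD expected from counting error alone for each listed transcript. The blue points end at 1.07, and the orange points lie at 0.271 or below.

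The steadiest transcript, isotig19309, had an SD of 0.401. Its signal was 163 in the apical meristem, 134 in emerging needles, 139 in young needle mesophyll, 180 in young needle vascular tissue, 203 in cotyledon mesophyll, 174 in cotyledon vascular tissue, 304 in hypocotyl cortex, 262 in hypocotyl vascular tissue, 113 in pith, 169 in root cortex, 122 in root vascular tissue, 122 in developing root cortex, 176 in developing root vascular tissue and 149 in the root meristem. The 2 highest values were those of hypocotyl cortex and hypocotyl vascular tissue, while the pith of the same organ was the lowest of the 14. It stayed within 2-fold of its own mean in all 14 libraries, as did 1 other member, isotig14012. All values rested on at least 57 reads. Its SD depended on the scaling: it was 0.694 with library totals alone, 0.615 with quantile normalisation, 0.544 with DESeq2 size factors and 0.509 with upper-quartile factors.

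The second, isotig31516 (SD 0.504), was highest in young needle mesophyll at 3043 and in the apical meristem at 2105. It stood at 1067 in emerging needles, 1321 in young needle vascular tissue, 1086 in cotyledon mesophyll, 1317 in cotyledon vascular tissue, 1789 in hypocotyl cortex, 1149 in hypocotyl vascular tissue, 1500 in pith, 1116 in root cortex, 1462 in root vascular tissue, 1361 in developing root cortex, 1519 in developing root vascular tissue and 681 in the root meristem. Without young needle mesophyll it would have ranked first, with an SD of 0.399. isotig14012, the third (SD 0.505), was likewise highest in young needle mesophyll, at 1275. Its other values were 812 in the apical meristem, 405 in emerging needles, 462 in young needle vascular tissue, 547 in cotyledon mesophyll, 616 in cotyledon vascular tissue, 804 in hypocotyl cortex, 544 in hypocotyl vascular tissue, 685 in pith, 542 in root cortex, 486 in root vascular tissue, 1091 in developing root cortex, 1086 in developing root vascular tissue and 566 in the root meristem. Both developing root libraries came next to the mesophyll, and the older root libraries, at 542 and 486, were among the lower ones.

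unigene30791, the fourth (SD 0.522), was a low-signal member. It stood at 19.9 in the apical meristem, 57.4 in emerging needles, 39.6 in young needle mesophyll, 33.0 in young needle vascular tissue, 104 in cotyledon mesophyll, 34.2 in cotyledon vascular tissue, 52.6 in hypocotyl cortex, 73.7 in hypocotyl vascular tissue, 70.2 in pith, 38.5 in root cortex, 41.1 in root vascular tissue, 43.7 in developing root cortex, 40.4 in developing root vascular tissue and 46.3 in the root meristem. The root libraries lay within a narrow band, 38.5 to 46.3, and the extremes were both in the shoot. It rested on at least 13 reads (root cortex), and counting error was 17.7% of its variance, the highest share of any member. The fifth, isotig77975 (SD 0.550), was the member with the highest mean signal, 7046 ± 3143 (SD over 14 libraries), and rested on at least 1890 reads. Young needle mesophyll stood apart at 16316, and the other 13 libraries lay between 3318 in young needle vascular tissue and 8986 in hypocotyl cortex. Without that mesophyll its SD was 0.415. The SDs of these transcripts also depended on the scaling. With upper-quartile factors they were 0.819 for isotig31516, 0.838 for isotig14012, 0.560 for unigene30791 and 0.885 for isotig77975. In the same order they were 0.724, 0.702, 0.654 and 1.257 with quantile normalisation. With library totals alone they were 0.610, 0.737, 0.838 and 0.653, and with DESeq2 size factors 0.567, 0.541, 0.629 and 0.575.

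**Figure D2:**
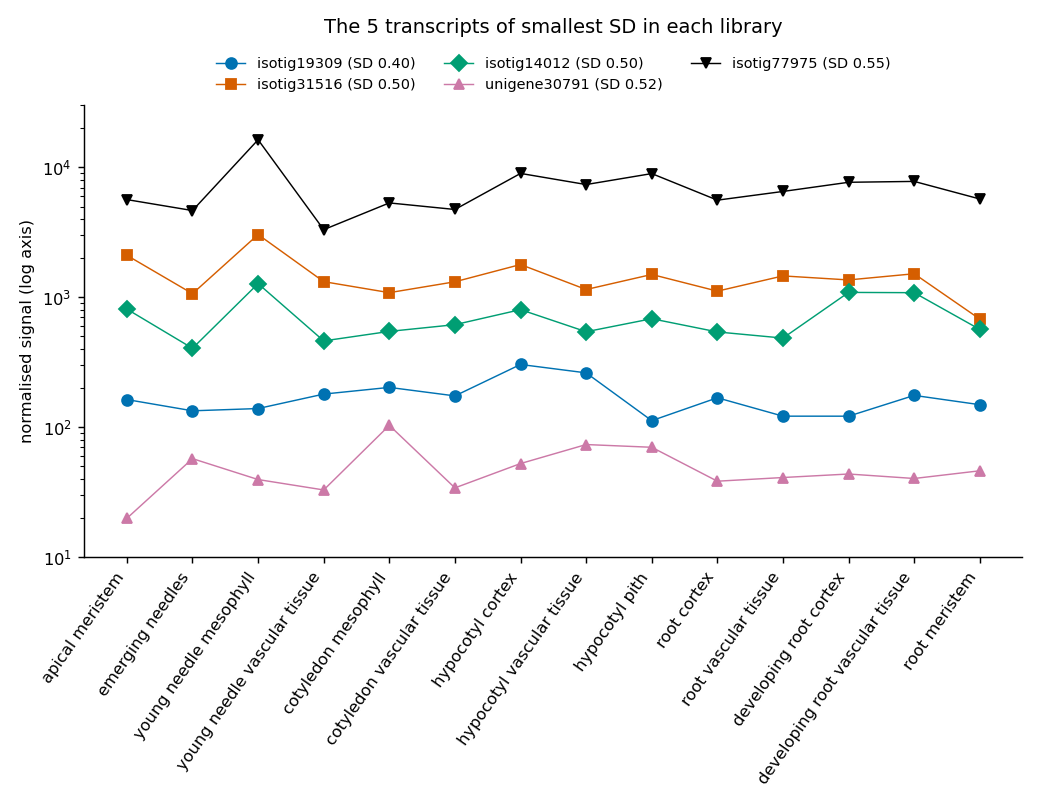
Normalised signal (vertical axis, log scale) of the 5 transcripts of smallest SD in each of the 14 libraries, 1 point per library, with lines joining the points of a transcript as a guide only. isotig19309 runs between 113 and 304, and isotig77975, isotig31516 and isotig14012 each have their highest point in young needle mesophyll.

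Members with the highest and lowest mean signal differed in where they peaked. isotig05267 averaged 2795 ± 2100 (SD over 14 libraries), with 9461 in young needle mesophyll, 4241 in pith as its next highest value and 1173 in the root meristem as its lowest. unigene21427 went the other way in that mesophyll. It averaged 2102 ± 1418, was highest in emerging needles at 5430 and the root meristem at 4528, and lowest in young needle mesophyll at 351. At the low end, unigene28548 averaged 28.5 ± 14.7, between 10.1 in cotyledon mesophyll and 55.8 in hypocotyl vascular tissue. isotig54842 averaged 34.7 ± 27.7 and stood at 125 in young needle mesophyll, with its other libraries between 11.8 and 46.3.

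A small SD over 14 libraries does not exclude a large departure in 1 of them. In 11 of the 200 members a single library held over 50% of the summed squared deviations from the transcript's own mean. It lay above the mean in 5 of the 11 and below in 6, and in 3 each it was young needle mesophyll or emerging needles. The clearest was unigene2349, named after its values were seen. It stood between 22.8 and 64.4 in 13 libraries, with a median of 33.8, and at 482 (340 reads) in root vascular tissue, 11.9-fold above its mean in the other 13 on the log2(signal + 5) scale. Its SD over those 13 was 0.389, while over all 14 it was 1.03, which placed it 169th. Over the same 13 libraries isotig19309 had an SD of 0.397, and without its own most distant library, hypocotyl cortex, it had 0.328. The largest ratio of highest to lowest among members was that of unigene3281, 31.5, from 118 in emerging needles to 3701 in root vascular tissue. Its other libraries ran from 343 in cotyledon mesophyll to 994 in hypocotyl vascular tissue.

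The libraries differed in how closely they kept to the members' own means. Of the 2800 deviations (200 transcripts in 14 libraries), 2072 (74.0%) were within 2-fold. In hypocotyl vascular tissue 171 of the 200 members were within 2-fold, in developing root cortex 168 and in developing root vascular tissue 163. Young needle mesophyll had the fewest, 116, with 42 members more than 2-fold above and 42 more than 2-fold below their means. Root vascular tissue had 126 and the apical meristem and hypocotyl cortex 128 each. Among the 526 other transcripts at 10 or more everywhere, the share within 2-fold was also highest in hypocotyl vascular tissue, at 77.4%. It was lowest in root vascular tissue (33.3%), the apical meristem (35.2%) and young needle mesophyll (37.6%), so these extremes were not particular to the members. Hypocotyl cortex and emerging needles were shifted down, with 61 and 55 members more than 2-fold below and 11 and 16 more than 2-fold above. The mean log2 deviation of members was -0.47 in hypocotyl cortex and -0.42 in emerging needles. Over all 726 transcripts at 10 or more everywhere it was -0.20 and -0.61, so the shift in emerging needles was not particular to the members. Hypocotyl cortex was the lowest library for 36 members and emerging needles for 30, whereas hypocotyl vascular tissue was the lowest for none of the 200. The highest library was most often the apical meristem (34 members), young needle mesophyll (32) or root vascular tissue (24).

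**Figure D3:**
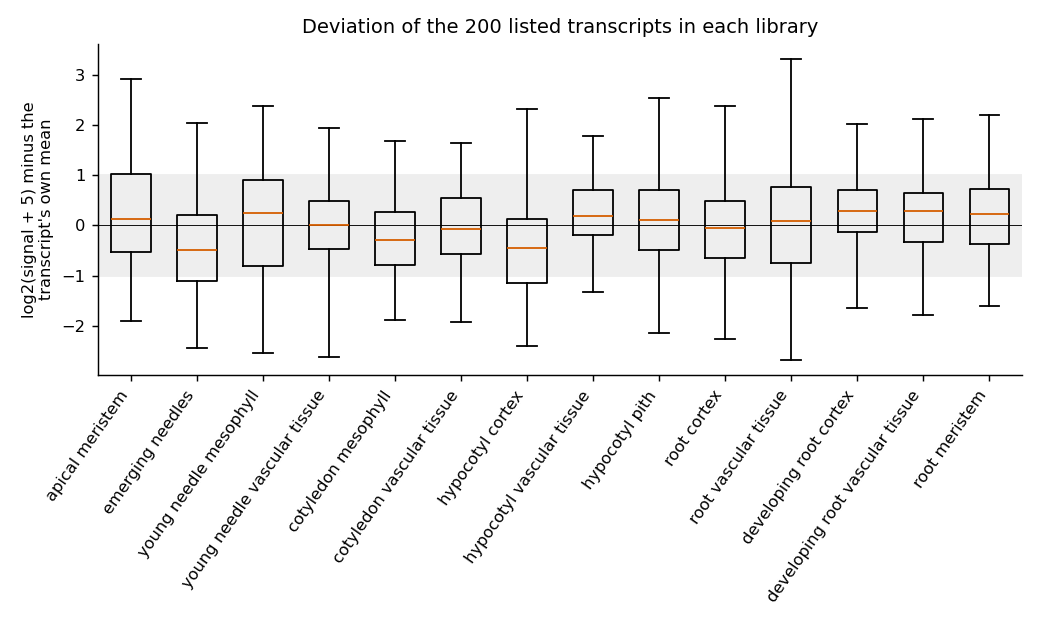
Deviation of the 200 listed transcripts from their own mean of log2(signal + 5) (vertical axis) in each library. Boxes span the quartiles, lines inside are medians, whiskers reach the lowest and highest member, and the grey band marks 2-fold either way. Boxes are widest in young needle mesophyll, root vascular tissue and the apical meristem, and lowest in hypocotyl cortex and emerging needles.

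The organs' root and shoot libraries were set side by side, although the rule had used the same values. Choosing small SDs leaves little room for a difference between groups, so the counts and p-values of members here and in the tissue comparison describe the choice and nothing is read from them. The 4 root and developing root libraries were compared with the 6 needle, cotyledon and hypocotyl libraries, with tissue group as a term, over 11163 transcripts, of which all 200 members were part. limma called none of the 200 at an adjusted p under 0.05, where it called 3.41% of all transcripts tested. None had an unadjusted p under 0.05 (19.3% of all), and none was called by edgeR (2.82% of all) or DESeq2 (10.3% of all), where the lowest adjusted p of a member was 0.0505. The median absolute log2 difference was 0.44 among members and 0.95 over all, and 26 of the 200 members differed by more than 2-fold, compared with 47.7% of all. isotig32674 was the most root-high member. It stood at 133 in root cortex, 137 in root vascular tissue, 147 in developing root cortex, 159 in developing root vascular tissue and 159 in the root meristem. In the 6 shoot libraries compared it ran from 13.2 in young needle mesophyll to 69.0 in cotyledon mesophyll. The difference was 1.59 ± 0.92 SE on the log2 scale (limma adjusted p = 0.337), so it was not called even though the groups did not overlap. isotig12347 was the most shoot-high member, at 43.5 to 127 in the 4 root libraries and 94.0 to 414 in the 6 shoot libraries, which overlapped (-1.72 ± 0.90 SE, limma adjusted p = 0.287).

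Groups did not overlap for 5 of the 200 members (2.5%), against 6.18% of all transcripts tested. Besides isotig32674 these were isotig01913 and isotig01061, higher in root, and isotig28556 and isotig27198, lower in root, which were named after their values were seen. Pith, emerging needles and both meristems were not in this comparison, and isotig01913 was highest of all in the apical meristem, at 669. isotig28556 was the eighth steadiest transcript of the list, at 68.3 to 97.7 in the 4 root libraries and 109 to 306 in the 6 shoot libraries. Its difference was -0.91 on the log2 scale. Emerging needles and the apical meristem, at 71.6 and 90.4, lay within its root range, so the separation held for the organs compared and not for the whole shoot.

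Vascular and ground tissue were compared within the 5 organs in the same way. limma called none of the 200 members and 0% of all transcripts tested. At an unadjusted p under 0.05 there were 3 members, all higher in vascular tissue, where 10.4% of all transcripts reached it: unigene17239, unigene18113 and unigene29456. edgeR called none of the 200 (0.206% of all), nor did DESeq2 (2.11% of all). unigene17239 had the largest difference, 1.59 ± 0.75 SE on the log2 scale (limma adjusted p = 0.460). Its vascular libraries stood at 750 in young needles, 541 in cotyledons, 442 in the hypocotyl, 1177 in root and 251 in developing root. The ground tissue of the same organs stood at 113, 504, 229, 91.8 and 159. Vascular tissue was higher in each of the 5 organs, by little in cotyledons and by most in root, and the groups overlapped. The largest difference the other way was that of isotig56186, -1.10 ± 0.86 SE (limma adjusted p = 0.694). Its vascular libraries ran from 11.5 to 101 and its ground tissue libraries from 30.1 to 170. Groups did not overlap for 2 members, isotig31192 and unigene174, both higher in vascular tissue and named after their values were seen, or 1% of members against 0.681% of all. For unigene174 the 5 vascular libraries ran from 170 to 373 and the 5 ground tissue libraries from 78.9 to 148.

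Whether such a list stays steady in a tissue it was not chosen on was examined by choosing 200 transcripts with the same rule on 13 libraries and reading them in the 14th. Those values were not used by the choice. In the left-out library 58.1% of the 2800 readings were within 2-fold of the transcript's mean in the other 13, compared with 74.0% for the list chosen on all 14. The 74.0% was measured from means that include the reading itself, which makes deviations smaller, so part of the drop comes from the measure. For the transcripts at 10 or more in the same 13 libraries that were not chosen, the share was 47.9%. The median absolute difference, taken as the median of the 14 libraries, was 0.76 on the log2 scale for the chosen and 1.03 for the not chosen. It was smaller for the chosen in 12 of 14 libraries. The exceptions were young needle mesophyll, at 1.97 against 1.93, and hypocotyl cortex, at 1.15 against 1.14. The lower spread of the chosen thus carried over to most left-out tissues in part, and to these 2 by this measure not.

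The share within 2-fold differed widely between left-out tissues. In hypocotyl vascular tissue 76.5% of the chosen were within 2-fold, in developing root vascular tissue 74.5%, in developing root cortex 73.5% and in the root meristem 70.0%. The root meristem had the widest lead over the transcripts not chosen, which reached 40.6% there, while in hypocotyl vascular tissue they reached 75.4%. Leaving out 1 developing root library left the other in the choice, and deviations of the 200 listed transcripts in the 2 had a Pearson correlation of 0.72. At the other end, 24.5% of the chosen were within 2-fold in young needle mesophyll and 30.5% of the not chosen. In that library 60 of the 200 fell under a signal of 10, and 26 had no reads. Root vascular tissue followed with 41.0%, hypocotyl cortex with 45.0%, the apical meristem with 45.5% and emerging needles with 48.0%. Over all libraries 6.82% of chosen readings and 5.54% of those not chosen fell under 10. Without young needle mesophyll these shares were 5.04% and 3.28%. Chosen and other transcripts differed somewhat in level (median signals of 115 and 148 for the full list and the rest), and its part in these shares was not tested.

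**Figure D4:**
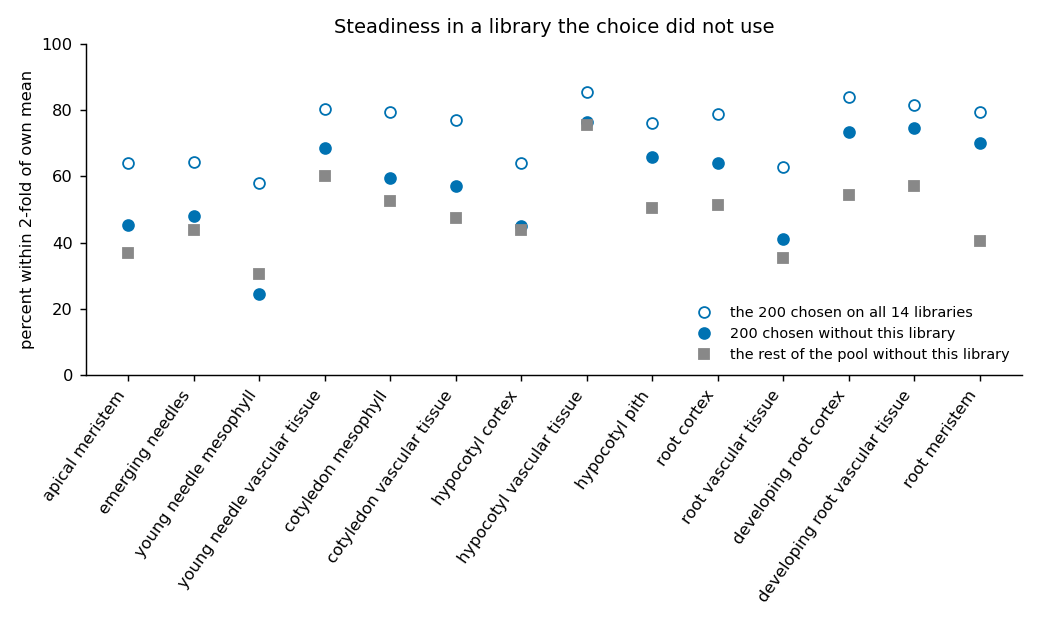
Percent of transcripts within 2-fold of their own mean (vertical axis) in each library. Open circles are the 200 chosen on all 14 libraries, measured from the mean of all 14. Filled circles are 200 chosen without the library shown, and squares the transcripts at 10 or more in the other 13 that were not chosen. Both of the latter are measured from the mean of the other 13. Filled circles lie above squares in 13 of 14 libraries, and young needle mesophyll is lowest at 24.5%.

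The same rule on the 10 vascular and ground tissue libraries alone gave 200 transcripts, of which 133 were in the full list, and left 4 tissues unused. Within 2-fold were 63.5% of them in pith, 61.0% in the root meristem, 48.0% in emerging needles and 44.5% in the apical meristem. For the transcripts at 10 or more in those 10 libraries that were not chosen, the shares were 55.4%, 42.7%, 43.5% and 38.0%. The chosen were ahead in all 4 tissues, with the largest lead again in the root meristem. In the apical meristem they lay above their means (median log2 difference 0.39, against 0.12 for those not chosen), and in emerging needles both sets lay below (-0.71 and -0.74).

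Single transcripts and averages of several were compared as references in left-out libraries. When the single steadiest transcript of 13 libraries was read in the 14th, its log2 departure from its mean had a median of 0.31 and reached 3.58, the case of unigene2349 in root vascular tissue. Without young needle mesophyll the steadiest was isotig31516, and without any library other than these it was isotig19309. The values for a single transcript thus mostly describe isotig19309 and not single references in general. Without root vascular tissue the largest departure of the single steadiest transcript was 1.22, in young needle mesophyll. For the average of the 3 steadiest the median was 0.41 and the largest departure 1.35, in root cortex, and for the 5 steadiest they were 0.24 and 1.06. The average of the 10 steadiest departed by a median of 0.34 and at most by 1.11, in emerging needles. For the 50 steadiest these were 0.28 and 0.95, in hypocotyl cortex, and for all 200 they were 0.31 and 0.94, in young needle mesophyll. The case of unigene2349 thus sets the single transcript apart, and in the other 13 libraries its largest departure was close to those of the averages of 3 to 10. Departures are measured against the deposited scaling, which has its own error.

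The members as a set also bear on the scaling of the libraries. They took 2.26% of the reads in hypocotyl cortex (95% Wilson interval 2.22 to 2.30%), 2.77% in root cortex (2.73 to 2.81%) and 3.32% in root vascular tissue (3.29 to 3.35%). In the other 11 libraries they took 5.28 to 8.58%, the most in developing root vascular tissue (8.52 to 8.65%). Scaled by library totals alone, their mean log2 level thus ran from -1.34 in hypocotyl cortex to 0.66 in developing root vascular tissue around their own mean. With the deposited factors it ran from -0.47 in hypocotyl cortex and -0.42 in emerging needles to 0.28 in developing root cortex. The range was thus 0.75 with the deposited factors, under which the members were chosen. The Wilson intervals treat reads as independent, which reads of amplified cDNA are not, and cover counting error only.

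**Figure D5:**
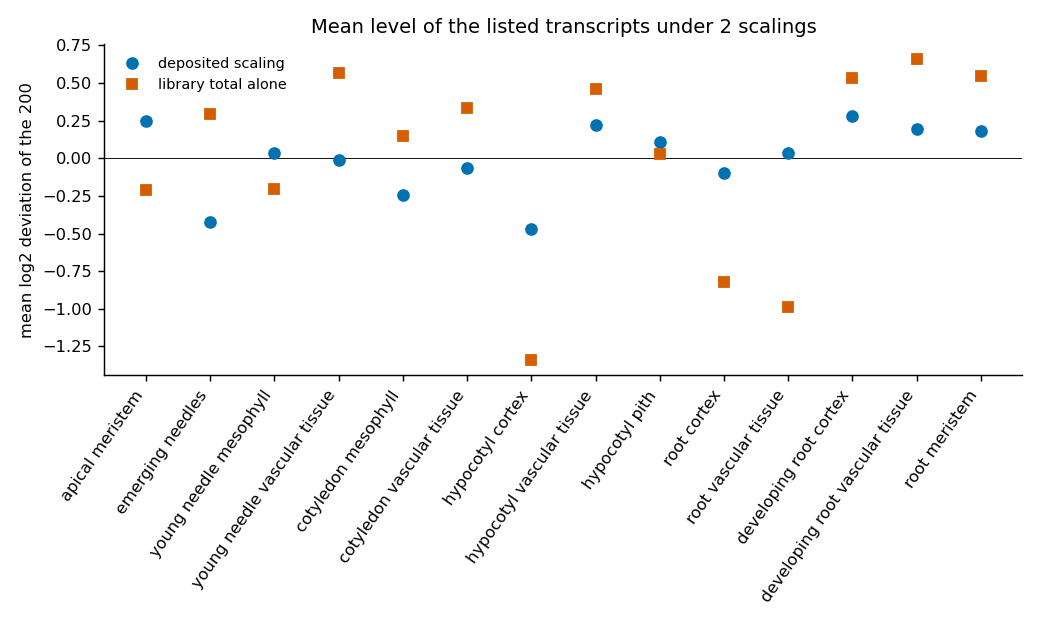
Mean log2 deviation of the 200 listed transcripts from their own means (vertical axis) in each library, with the deposited scaling (circles) and with library totals alone (squares). Squares are lowest in hypocotyl cortex, root vascular tissue and root cortex, and circles stay between -0.47 and 0.28.

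Transcripts outside the list showed what scaling on its members would change. For the 526 others at 10 or more everywhere the median SD was 1.39 with the deposited factors, 1.48 with totals alone, 1.505 when scaled on isotig19309 alone, 1.42 on the 10 steadiest and 1.38 on all 200. For the 1650 transcripts with a read in every library but a signal under 10 in some, it was 1.40, 1.44, 1.45, 1.41 and 1.39. The 526 were left off the list for larger SDs under the deposited factors, so their medians lean against those factors. The 1650 were set apart by the floor and not by SD. For both sets, the members used for scaling had been chosen under the deposited factors. With DESeq2 size factors the medians were 1.38 and 1.38, and with upper-quartile factors 1.47 and 1.41. Scaling on the whole list thus gave median SDs close to those with the deposited and DESeq2 factors, but the factors themselves differed. Against the deposited factors, scaling on the 200 shifted log2 signals by -0.31 in developing root cortex and 0.50 in hypocotyl cortex. DESeq2 factors shifted them by -0.20 and 0.18 in these libraries. Scaling on the steadiest transcript alone gave a wider spread than any other scaling tried on both sets.

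Ratios between members do not depend on scaling. Over the 19900 pairs the SD of the log2 ratio had a median of 1.32, and in 35 pairs it was under 0.5. The steadiest pair, picked for that reason, was isotig13407 and unigene126715. Each varied more than 11-fold by itself, from 43.9 to 511 and from 14.2 to 183, both lowest in root vascular tissue and highest in hypocotyl vascular tissue. Their ratio stayed between 2.67 in young needle mesophyll and 4.44 in hypocotyl cortex, with a median of 3.12, and unigene126715 had as few as 9 reads. Whether the 2 identifiers come from 1 gene cannot be told from identifiers alone. Of the 5 steadiest transcripts, isotig14012 and isotig77975 formed a pair with an SD of 0.38, both peaking in young needle mesophyll.

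Membership was firmer for some transcripts than for others. The rule was repeated with 29 alternatives of scaling, pseudocount, floor, measure of spread and libraries. A total of 32 of the 200 transcripts were kept under all 29, among them isotig19309, isotig31516, isotig14012, unigene18128 and unigene34091, and 157 were kept under 20 or more. unigene18128 ranged from 86.5 in emerging needles to 414 in root vascular tissue, with a median of 285. unigene34091 ranged from 64.8 in cotyledon mesophyll to 323 in developing root cortex, next to 309 in developing root vascular tissue. isotig43660, last on the list, was kept under 7.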

How the data were processed

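The deposited table holds a normalised signal per transcript and library. Tools named in the submitters' processing notes are BWA, FastQC and edgeR, with no versions. The reference assembly and the filter on low counts are not given in the sources used here. Column sums differ, and 100% of the values of each column were whole multiples, within 0.001, of its smallest value above 0, so whole reads were recovered. Trimmed-mean factors from those reads matched the factors in the deposited signal within a relative 5.22e-10. The members and alternatives were chosen with earlier results of these data known. The held-out alternatives, the pair ratios, the reference scaling and the averages of several transcripts were added after the data were examined.

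The list, its spread and the held-out values were computed in Python 3.11.15 with pandas 2.3.3. Contrasts between organs or tissue groups used limma 3.58.1 (R 4.3.3) on log2(signal + 5), with a trend in the prior variance, on transcripts at 10 or more in at least 3 of the 10 vascular and ground tissue libraries, with Benjamini-Hochberg adjustment over all tested. edgeR 4.0.16 (quasi-likelihood) and DESeq2 1.42.0 ran on the recovered reads as alternatives. Organs and tissues served as replicates, so p-values measure the spread between these libraries, which may share seedlings. Vascular against ground tissue had a term for organ. Root against shoot had none, although its 10 libraries came from 5 organs, so its p-values and calls ignore likeness within an organ. Procedures were run on simulated data with steady transcripts set well apart from the others and with large planted changes. Such runs check the code and do not bear on a list that ends with no gap. Named transcripts were the 5 of smallest SD, the 3 of highest and 2 of lowest mean, those at the end of the list, the largest ratio, the largest difference each way in both contrasts, and up to 5 kept under most alternatives. Marker and reference gene lists could not be applied, as identifiers are not paired with names.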

Additional observations from a re-analysis of the deposited data

Results flagged for a closer look

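Signals of the named transcripts and summary values of the list were screened for a library far from the others of its group in 46 sets of 5 vascular or 5 ground tissue libraries. Chance alone was taken to mark about 1 in 20 independent sets, and 7 values were marked in transcripts partly named for extreme values. The screen used signals without a logarithm, where high values lie further apart, and all 7 were the highest of their set. The rate of 1 in 20 need not hold for such values, so the count of 7 is not read against it.

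Among vascular libraries, developing root stood apart for isotig14012, at 1086 with the next highest at 616, and for unigene34091, at 309 with the next at 129. unigene30791 was marked in both groups, at 73.7 in hypocotyl vascular tissue (next 41.1) and at 104 in cotyledon mesophyll (next 52.6). unigene3281 stood at 3701 in root vascular tissue, with the next at 994. Among ground tissue libraries, young needle mesophyll stood apart for isotig54842, at 125 (next 37.5), and for isotig05267, at 9461 (next 3450).

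The difference between vascular and ground tissue had opposite signs in shoot and root organs for 2 of 18 named transcripts. For isotig77975 it was negative in all 3 shoot organs (-2.30 to -0.17, mean -0.92) and positive in both root organs (0.02 and 0.22), a gap of -1.04 on the log2 scale. For isotig05267 it was -2.60 to -0.55 in shoot organs (mean -1.29) and 0.07 and 0.80 in root organs, a gap of -1.73. In both the largest negative value came from young needles. These differences between shoot and root organs were not tested.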

How the results depend on the processing

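Of the 200 transcripts, 119 were kept with a floor of 25 (356 transcripts met it), 75 when 1 read in every library sufficed (2376 met it, and the median SD of the new list was 0.794), 114 with library totals alone, 116 with the median absolute deviation and 133 on the 10 vascular and ground tissue libraries. The other alternatives that kept all 14 libraries gave 139 to 190. Without 1 library, 122 to 190 were kept, the fewest without young needle mesophyll, the median SD was 0.833 to 0.948 and 729 to 993 transcripts met the floor. Without hypocotyl vascular tissue and pith together 176 were kept. The median SD was 0.765 with pseudocount 25, which by construction narrows the log scale. The held-out median difference was 0.616 to 0.841 under 7 alternatives, and the chosen transcripts were nearer in 10 to 14 of 14 libraries. No listed transcript was called in either contrast under the alternatives run, which the choice of small SDs fixes and which shows no stability. Over all transcripts, root against shoot gave 381, but 121 with pseudocount 25, 79 with no filter, 1146 with DESeq2, 315 with edgeR and 195 to 383 without 1 library (195 without hypocotyl vascular tissue, 198 and 212 without developing root vascular tissue and cortex, 243 without cotyledon mesophyll). Vascular against ground tissue gave 0, but 1 with a filter at 25 or quantile normalisation, 23 with edgeR, 236 with DESeq2 and 0 to 17 without 1 library (17 and 9 without developing root vascular tissue and cortex). Causes of these changes were not tested. With 1 library a tissue, steadiness between seedlings could not be measured.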

Other observations

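Even among the steadiest transcripts, deviations from the transcripts' own means ran together in certain library pairs. Over the 200 members, the cortex and vascular tissue of the developing root had the highest Pearson correlation of deviations of the 91 pairs, 0.72, and 0.78 over the 526 other transcripts at 10 or more everywhere. Cotyledon mesophyll and hypocotyl pith followed with 0.33, the apical and root meristems with 0.32, and developing root vascular tissue and the root meristem with 0.30, where the 526 gave 0.68. The apical meristem and root cortex stood at 0.28, and young needle vascular and hypocotyl vascular tissue at 0.27. The median pair stood at -0.12. A shift shared by all transcripts of a library has little effect on these correlations, since each library is centred. Correlations of deviations from a mean lean negative by construction. These values describe the libraries only. Reads carried between libraries, as a source of likeness within these pairs, were not tested.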
